A study of Arabidopsis with 22 samples.

Results

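Transcript levels of the 4 Arabidopsis genes that make and conjugate N-hydroxypipecolic acid (NHP) were followed across a cross of a defense mutant with a circadian clock mutant. The genes, chosen by locus, were *ALD1* (AT2G13810), *SARD4* (AT5G52810), *FMO1* (AT1G19250) and *UGT76B1* (AT3G11340), 4 of 25218 genes with a value in the expression table. All 4 were among the 21666 genes that had a mean RPKM, the reads of a gene scaled by its length and by the mapped reads of the library, above 0.3 in at least 1 group, the condition for being tested.

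Pipecolic acid and its N-hydroxylated form are made from lysine and accumulate in leaves after pathogen attack, where they are known for the establishment of systemic acquired resistance, the protection of leaves far from a first infection. *ALD1* is the aminotransferase that starts the route from lysine, *SARD4* is the reductase that yields pipecolic acid, and *FMO1* is the monooxygenase that turns pipecolic acid into NHP. *UGT76B1* is the glucosyltransferase that conjugates NHP, and also salicylic acid (SA), to glucose and so removes the active forms.

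The 22 RNA-seq libraries came from whole 25-day-old plants of 4 genotypes, all in the Col-0 accession, collected at zeitgeber time 13 (ZT13, 13 h after lights on and in early night) or ZT1 (1 h after lights on). The genotypes were the double mutant *acd6-1lux-1*, the single mutants *acd6-1* (labelled acd6-1-0) and *lux-1*, and Col-0 without either mutation. *acd6-1* is a gain-of-function allele of *ACD6* that keeps SA defense on without a pathogen and dwarfs the plant, and *lux-1* is a nonsense allele of *LUX*, a transcription factor of the evening complex of the clock. The double mutant was made by crossing the single mutants. *acd6-1lux-1* and *acd6-1* at ZT13 had 2 libraries each and the other 6 groups had 3 each.

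The libraries held 14458079 to 20134373 reads, of which 79.84% to 81.59% were mapped, except in *acd6-1lux-1* ZT1 replicate 3 at 60.51%. *LUX* transcript, which a nonsense allele can leave in place, separated the genotypes at ZT13, with 65.3 to 81.0 RPKM in the 5 libraries that carry *lux-1* and 6.10 to 8.17 RPKM in the 5 that do not. *PR1*, the usual marker of SA defense, was at 1156 to 9235 RPKM in the 10 libraries that carry *acd6-1* and at 15.7 to 976 RPKM in the 12 that do not. Of 6 root markers, *PYK10*, also made in the shoot, was at 52.3 to 233 RPKM, and none of the other 5 exceeded 1.15 RPKM in any library, against summed leaf markers of 15139 to 58696 RPKM. In these whole-plant samples more cells of a type and more transcript per cell cannot be told apart.

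Differences were tested with limma on log2(RPKM + 1) over all 22 libraries, and a gene passed at an adjusted p (Benjamini-Hochberg, over all 21666 genes) under 0.1. Every fold change below is on that log2(RPKM + 1) scale, which understates changes of genes with low RPKM. Statements that the libraries of groups did or did not overlap are descriptions. The share of all genes that separate in such a way was not counted. The labels call the samples replicates, described in the methods as biological, without naming the plants behind each one, so the p-values measure the spread between these samples.

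*ALD1*, the first enzyme, was nearly silent in plants without *acd6-1* and high in every plant with it. At ZT13 the *acd6-1lux-1* libraries held 36.2 and 36.8 RPKM, the *acd6-1* libraries 26.6 and 44.0 RPKM, the *lux-1* libraries 0.429, 1.15 and 0.276 RPKM and the Col-0 libraries 0.690, 0.614 and 0.532 RPKM. The ZT1 libraries held 33.8, 11.0 and 31.8 RPKM in the *acd6-1lux-1* group, 31.3, 39.7 and 53.2 RPKM in the *acd6-1* group, 1.09, 0.893 and 0.237 RPKM in the *lux-1* group and 0.109, 0.172 and 0.161 RPKM in Col-0. All 10 libraries with *acd6-1* stood above all 12 without it, and the lowest of the 10 was the second replicate of *acd6-1lux-1* at ZT1. The low end rests on few reads, with 2, 3 and 3 *ALD1* reads in the Col-0 libraries at ZT1 and 9 to 12 at ZT13, against 551 to 890 reads in the *acd6-1* libraries.

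The log2 fold change of *ALD1* in *acd6-1* over Col-0 was 4.45 ± 0.36 (SE) at ZT13 (adjusted p = 7.2e-08, limma) and 5.18 ± 0.33 at ZT1 (adjusted p = 7.5e-10, limma). As a ratio of the reads pooled over each group, *ALD1* was 57.1 times as abundant in *acd6-1* as in Col-0 at ZT13 and 274 times at ZT1. The 95% counting intervals of these ratios were 40.2 to 83.8 and 139 to 636, and they cover counting error only. In the *lux-1* background the log2 fold change in *acd6-1lux-1* over *lux-1* was 4.57 ± 0.36 at ZT13 and 3.82 ± 0.33 at ZT1 (adjusted p = 1.0e-07 and 6.7e-08, limma).

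*AGD2*, the nearest relative of *ALD1* and an aminotransferase of lysine synthesis, was not raised with *acd6-1*. Its level averaged 94.1 ± 5.74 RPKM in *acd6-1lux-1* (SD, n = 2), 88.9 ± 1.87 in *acd6-1* (n = 2), 98.7 ± 12.4 in *lux-1* (n = 3) and 99.0 ± 10.6 in Col-0 (n = 3) at ZT13. At ZT1 the 3 *acd6-1* libraries held 46.0, 44.6 and 47.1 RPKM of *AGD2* and the 3 Col-0 libraries 76.1 to 78.2 RPKM. *AGD2* thus fell by 0.73 on the log2 scale at ZT1 (adjusted p = 1.7e-06, limma) and was at -0.15 at ZT13 (adjusted p = 0.26), so per length it was far above *ALD1* in Col-0 and at ZT1 in *acd6-1* the means of the pair were close, 45.9 RPKM of *AGD2* and 41.4 RPKM of *ALD1*.

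*SARD4*, the reductase that follows *ALD1*, had a high level in all 22 libraries and the smallest change with *acd6-1* of the 3 synthesis genes. At ZT13 the *acd6-1lux-1* libraries held 118 and 119 RPKM, the *acd6-1* libraries 109.7 and 150.3 RPKM, the *lux-1* libraries 37.3, 47.6 and 37.7 RPKM and the Col-0 libraries 57.8, 38.3 and 45.0 RPKM. The ZT1 libraries held 109, 64.8 and 104 RPKM in the *acd6-1lux-1* group, 105, 116 and 128 RPKM in the *acd6-1* group, 27.3, 23.9 and 14.0 RPKM in the *lux-1* group and 14.5, 16.2 and 18.2 RPKM in Col-0. The *acd6-1* groups again lay wholly above the others, but the distance narrowed at ZT13, where the highest Col-0 library reached 57.8 RPKM and the lowest library with *acd6-1* was at 109.7 RPKM. Per library *SARD4* was read 168 to 2009 times.

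*SARD4* rose in *acd6-1* over Col-0 by 1.45 ± 0.25 on the log2 scale at ZT13 (adjusted p = 0.00013, limma) and by 2.77 ± 0.22 at ZT1 (adjusted p = 1.0e-08, limma). In *acd6-1lux-1* over *lux-1* the values were 1.52 ± 0.25 at ZT13 and 2.06 ± 0.22 at ZT1 (adjusted p = 0.00013 and 9.1e-07, limma). The ratio of mean RPKM, *acd6-1* to Col-0, was 2.76 at ZT13 and 7.15 at ZT1.

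*FMO1*, the enzyme that forms NHP itself, had the lowest level of the 4 genes in Col-0 and the largest change. At ZT13 the *acd6-1lux-1* libraries held 44.0 and 44.5 RPKM, the *acd6-1* libraries 47.1 and 80.2 RPKM, the *lux-1* libraries 0.277, 0.568 and 0.237 RPKM and the Col-0 libraries 0.378, 0.264 and 0.203 RPKM. The ZT1 libraries held 41.6, 11.8 and 40.2 RPKM in the *acd6-1lux-1* group, 47.0, 51.3 and 74.4 RPKM in the *acd6-1* group, 0.347, 0.288 and 0 RPKM in the *lux-1* group and 0.0937, 0.0495 and 0.139 RPKM in Col-0. The lowest library with *acd6-1*, at 11.8 RPKM, was again the second *acd6-1lux-1* replicate at ZT1, and it was still above the highest library without *acd6-1*, at 0.568 RPKM. In *lux-1* and Col-0 no library had more than 12 *FMO1* reads, and the 3 Col-0 libraries at ZT1 had 2, 1 and 3.

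*FMO1* rose in *acd6-1* over Col-0 by 5.61 ± 0.37 on the log2 scale at ZT13 (adjusted p = 9.0e-09, limma) and by 5.71 ± 0.33 at ZT1 (adjusted p = 2.7e-10, limma). Ordered by fold change among the 21666 genes tested, it was number 2 at ZT13 and number 10 at ZT1. The pooled reads gave ratios of 225 at ZT13 (95% counting interval 140.3 to 387) and 592 at ZT1 (272 to 1613), the second of these resting on 6 Col-0 reads in all. In *acd6-1lux-1* over *lux-1* *FMO1* rose by 5.06 ± 0.37 at ZT13 and 4.55 ± 0.33 at ZT1 (adjusted p = 4.8e-08 and 1.1e-08, limma).

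*UGT76B1*, the conjugating enzyme, changed with both the genotype and the time. At ZT13 the *acd6-1lux-1* libraries held 46.7 and 24.9 RPKM, the *acd6-1* libraries 47.4 and 78.6 RPKM, the *lux-1* libraries 4.65, 3.81 and 3.99 RPKM and the Col-0 libraries 10.7, 6.16 and 6.69 RPKM. The ZT1 libraries held 12.8, 3.66 and 9.46 RPKM in the *acd6-1lux-1* group, 11.1, 20.9 and 24.0 RPKM in the *acd6-1* group, 4.94, 2.45 and 0.303 RPKM in the *lux-1* group and 1.33, 3.58 and 0.549 RPKM in Col-0. Both ZT13 groups with *acd6-1* lay above all other libraries. At ZT1 *acd6-1* and Col-0 did not overlap, whereas the second *acd6-1lux-1* replicate, at 3.66 RPKM, lay below the highest *lux-1* library, at 4.94 RPKM.

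*UGT76B1* rose in *acd6-1* over Col-0 by 2.85 ± 0.57 on the log2 scale at ZT13 (adjusted p = 0.00056, limma) and by 2.88 ± 0.51 at ZT1 (adjusted p = 8.6e-05, limma), the same size at both times within these errors. In *acd6-1lux-1* over *lux-1* it rose by 2.77 ± 0.57 at ZT13 (adjusted p = 0.0010, limma) and by 1.55 ± 0.51 at ZT1 (adjusted p = 0.020, limma). The last of these did not pass without *lux-1* ZT1 replicate 3, the library with 0.303 RPKM, with a log2 fold change of 0.95 and an adjusted p of 0.14.

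**Figure D1:**
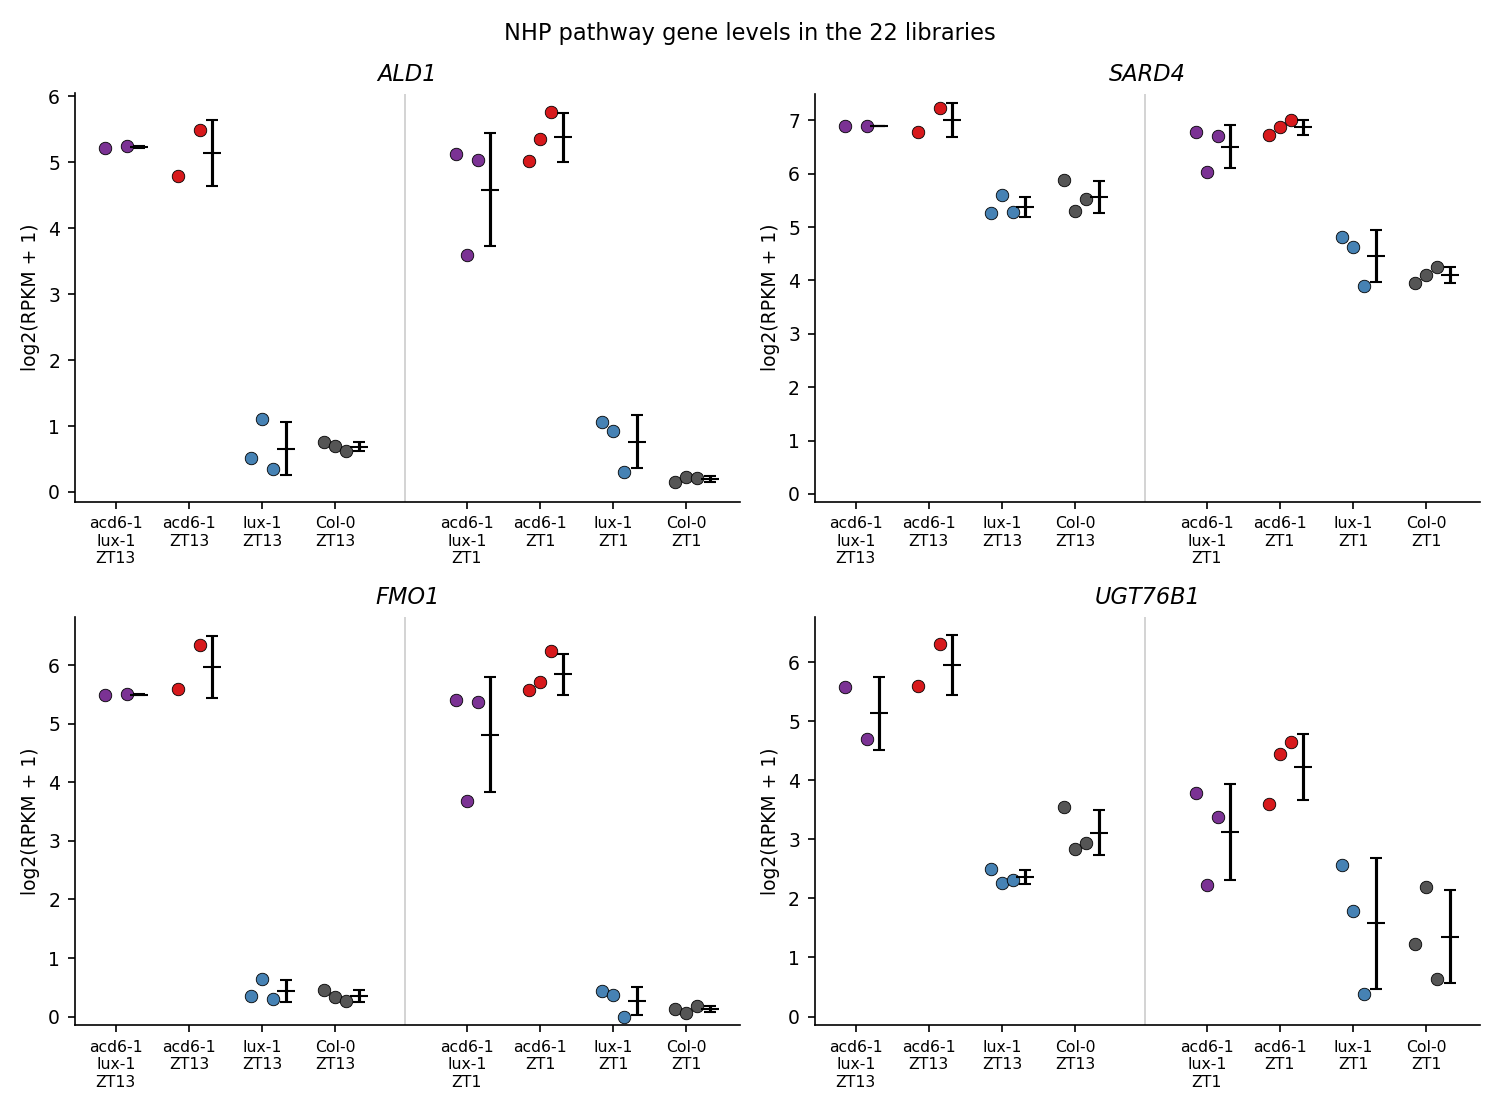
Level of each NHP pathway gene as log2(RPKM + 1) on the vertical axis in every library, with the 4 genotypes at ZT13 left of the same genotypes at ZT1. Points are libraries, and the dash and bar beside them give the mean ± SD (n = 2 or 3). *ALD1* and *FMO1* lie near 0 in every library without *acd6-1*, while *SARD4* and *UGT76B1* have a base level there that is higher at ZT13 in Col-0.

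All 4 genes thus passed at both times as raised in *acd6-1* over Col-0, where 22.3% of all genes tested did so at ZT13 and 37.2% at ZT1. With a change of more than 2-fold as a further condition the 4 still passed, where 7.74% of all genes did at ZT13 and 13.3% at ZT1. All 4 passed as raised in *acd6-1lux-1* over *lux-1* as well, against 19.9% of all genes at ZT13 and 32.2% at ZT1, or 5.38% and 8.57% with the 2-fold condition. The order of the fold changes was *FMO1*, *ALD1*, *UGT76B1* and *SARD4* in *acd6-1* over Col-0 at both times. Leaf markers, genes of the photosynthetic apparatus, fell in the same comparisons, 5 of 5 at both times. In *acd6-1* over Col-0 26.5% of all genes passed as lower at ZT13 and 31% at ZT1. The summed level of the leaf markers was 15139 to 17971 RPKM in *acd6-1* and 28462 to 31479 RPKM in Col-0 at ZT13, and 24478 to 27855 RPKM in *acd6-1* and 55073 to 58696 RPKM in Col-0 at ZT1. Touch and wound genes rose in *acd6-1* over Col-0, 6 of 6 at ZT13 and 5 of 6 at ZT1, beside the 22.3% and 37.2% of all genes. Summed levels were 4788 to 5277 RPKM in *acd6-1* and 1809 to 2332 RPKM in Col-0 at ZT13, and 3676 to 4225 RPKM in *acd6-1* and 1465 to 1614 RPKM in Col-0 at ZT1. The part of either list in the rise of the NHP genes was not tested.

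The levels themselves spread less in plants with *acd6-1* than in Col-0. Group means in *acd6-1* at ZT1 were 117 RPKM for *SARD4*, 57.5 for *FMO1*, 41.4 for *ALD1* and 18.7 for *UGT76B1*, and in Col-0 at ZT1 they were 16.3, 0.0940, 0.148 and 1.82 RPKM. The RPKM of *ALD1* per RPKM of *FMO1* was 0.565 and 0.548 in the 2 *acd6-1* libraries at ZT13 and 0.667, 0.773 and 0.715 in the 3 at ZT1, without overlap between the times. In *acd6-1lux-1* the same proportion was higher in every library, 0.823 and 0.828 at ZT13 and 0.813, 0.939 and 0.790 at ZT1, with no overlap between the 2 genotypes at either time. At ZT1 the nearest libraries of the 2 genotypes were at 0.773 and 0.790. This proportion was picked out after its values were seen and was not tested.

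In plants without *acd6-1* no difference between *lux-1* and Col-0 was detectable in these genes by the main test. None of the 4 passed in *lux-1* against Col-0 at ZT13, where 3.93% of all genes passed in either direction, or at ZT1, where 17.8% did, and none had an unadjusted p under 0.05 at either time by limma. At ZT13 the log2 fold changes were -0.03 for *ALD1*, -0.19 for *SARD4*, 0.08 for *FMO1* and -0.75 for *UGT76B1*, with adjusted p between 0.59 and 0.99 (limma). Their 95% intervals were -0.72 to 0.66 for *ALD1*, -0.65 to 0.28 for *SARD4*, -0.61 to 0.77 for *FMO1* and -1.82 to 0.32 for *UGT76B1*, which for *UGT76B1* includes a fall of more than 2-fold. *UGT76B1* was lower in all 3 *lux-1* libraries, at 3.81 to 4.65 RPKM, than in all 3 Col-0 libraries, at 6.16 to 10.7 RPKM, a separation that did not pass.

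At ZT1 *ALD1* was higher in all 3 *lux-1* libraries, at 0.237 to 1.09 RPKM, than in all 3 Col-0 libraries, at 0.109 to 0.172 RPKM. How often genes separate so in this comparison was not counted, and 17.8% of all genes passed in either direction. *ALD1* had 39 reads over the 3 *lux-1* libraries and 8 over the 3 Col-0 libraries, a ratio of 5.08 with a 95% counting interval of 2.34 to 12.6. On log2(RPKM + 1) the change was 0.57 ± 0.33 (adjusted p = 0.29, limma), with 0.1 in place of 1 added to RPKM it was 1.58 (adjusted p = 0.041), and DESeq2 on reads recovered from the RPKM values gave 2.22 (adjusted p = 0.037) and edgeR 2.18 (adjusted p = 0.24). The other genes had log2 fold changes of 0.35 for *SARD4*, 0.14 for *FMO1* and 0.23 for *UGT76B1* and overlapped between the genotypes. *SARD4* passed without *lux-1* ZT1 replicate 3, its lowest *lux-1* library, at 0.62 (adjusted p = 0.066). Of the 4 genes, edgeR and limma voom called none and DESeq2 called *ALD1* at ZT1, and none of the 3 called any at ZT13.

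In the *acd6-1* background at ZT13 none of the 4 genes passed in *acd6-1lux-1* against *acd6-1*, where 1.5% of all genes passed. None had an unadjusted p under 0.05 by limma, and edgeR, limma voom and DESeq2 called none. The log2 fold changes were 0.09 for *ALD1* (95% interval -0.75 to 0.93), -0.12 for *SARD4* (-0.69 to 0.46), -0.47 for *FMO1* (-1.31 to 0.38) and -0.82 for *UGT76B1* (-2.13 to 0.49). *FMO1*, at 44.0 and 44.5 RPKM in *acd6-1lux-1* against 47.1 and 80.2 RPKM in *acd6-1*, and *UGT76B1*, at 24.9 and 46.7 RPKM against 47.4 and 78.6 RPKM, did not overlap between these groups of 2. With 2 libraries on each side such a separation often arises without a difference. *ALD1* and *SARD4* lay within the range of *acd6-1*. Flower markers were higher with *lux-1* at ZT13, with summed levels of 16.2 to 27.0 RPKM in *acd6-1lux-1* and 3.089 to 4.397 RPKM in *acd6-1* (1 of 6 passed), and 15.3 to 33.6 RPKM in *lux-1* and 1.22 to 4.75 RPKM in Col-0 (5 of 6 passed). Of all genes 3.93% passed in either direction in *lux-1* against Col-0 at ZT13. The part of the flower markers in the levels of the NHP genes was not tested.

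At ZT1 the mean of every member was lower in *acd6-1lux-1* than in *acd6-1*, and 2 of the 4 passed, where 10.9% of all genes passed as lower. *FMO1*, the NHP-forming enzyme, fell by 1.03 ± 0.33 on the log2 scale (adjusted p = 0.030, limma), with 11.8 to 41.6 RPKM in *acd6-1lux-1* against 47.0 to 74.4 RPKM in *acd6-1*. *ALD1* fell by 0.79 ± 0.33 (adjusted p = 0.084), with overlapping libraries. *SARD4*, at -0.36 ± 0.22 (adjusted p = 0.24), and *UGT76B1*, at -1.10 ± 0.51 (adjusted p = 0.12), did not pass.

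Both calls rest on single libraries. Without *acd6-1lux-1* ZT1 replicate 2 none of the 4 passed, with -0.45 for *FMO1* (adjusted p = 0.16) and -0.30 for *ALD1* (adjusted p = 0.50), and without *acd6-1* ZT1 replicate 3 none passed either, with -0.83 (adjusted p = 0.13) and -0.60 (adjusted p = 0.27). Without *acd6-1* ZT1 replicate 2 *FMO1* alone passed, with *ALD1* at -0.81 (adjusted p = 0.15). DESeq2 called neither, and edgeR and limma voom called both and *UGT76B1*. The *FMO1* libraries still did not overlap without *acd6-1lux-1* ZT1 replicate 2, since the other *acd6-1lux-1* libraries held 41.6 and 40.2 RPKM and the lowest *acd6-1* library 47.0 RPKM. Without replicate 3 of *acd6-1lux-1*, the library with few mapped reads, *FMO1* and *ALD1* passed, with -1.30 (adjusted p = 0.0094) and -1.02 (adjusted p = 0.036).

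Touch and wound genes moved along with this contrast. All 6 of a list of 6 touch and wound genes fell in *acd6-1lux-1* against *acd6-1* at ZT1, with a median log2 fold change of -1.34, and 5 of the 6 fell in *lux-1* against Col-0 at ZT1, with a median of -2.14, while at ZT13 none of the 6 passed in either contrast by limma, with 0 and 1 at an unadjusted p under 0.05. Of all genes 10.9% passed as lower in *acd6-1lux-1* against *acd6-1* at ZT1, and 17.8% in either direction in *lux-1* against Col-0 at ZT1. The summed level of the 6 touch and wound genes at ZT1 was 1469 to 2185 RPKM in *acd6-1lux-1*, 3676 to 4225 RPKM in *acd6-1*, 380 to 585 RPKM in *lux-1* and 1465 to 1614 RPKM in Col-0. Among the most clearly changed were *TCH4*, a cell wall enzyme gene named for its response to touch, at -2.14, and the zinc finger genes *ZAT12* at -1.47 and *ZAT10* at -1.38. Their part in the lower NHP gene levels was not tested.

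**Figure D2:**
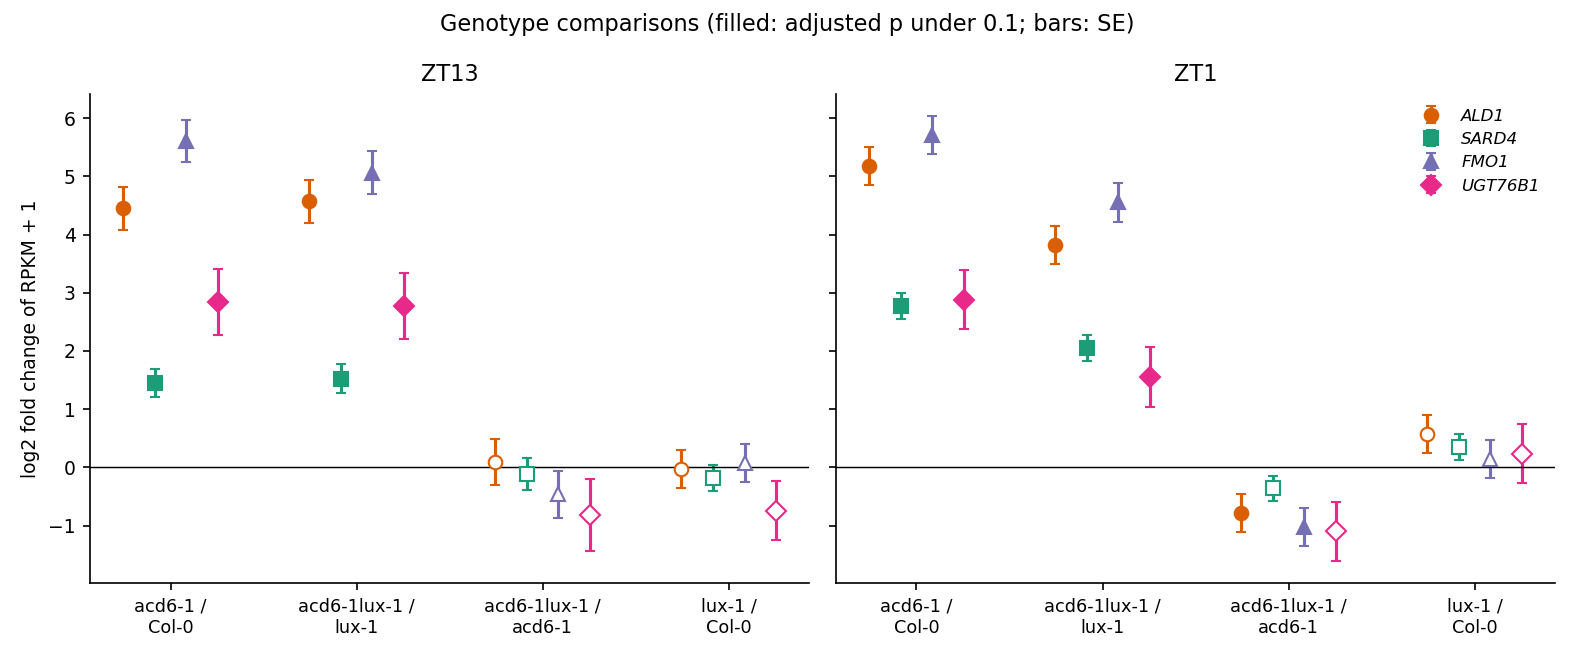
Log2 fold change of RPKM + 1 (vertical axis) of each gene in 4 genotype comparisons at ZT13 (left panel) and ZT1 (right panel). Symbols are genes, bars are ± SE from limma, and filled symbols passed at an adjusted p under 0.1. The comparisons that differ by *acd6-1* lie between 1.45 and 5.71, and those that differ by *lux-1* between -1.10 and 0.57.

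Whether the effect of *lux-1* depended on *acd6-1* was tested as the difference between the *lux-1* effects in the 2 backgrounds. At ZT1 this difference passed for *ALD1* alone, at -1.36 ± 0.46 (adjusted p = 0.074, limma), where 8.39% of all genes passed as lower. The *lux-1* effect on *ALD1* was -0.79 with *acd6-1* and 0.57 without. For *SARD4* the difference was -0.71 (adjusted p = 0.16), for *FMO1* -1.16 (adjusted p = 0.12) and for *UGT76B1* -1.33 (adjusted p = 0.25), so all 4 estimates had the same sign. The *ALD1* call was lost when any 1 of 8 libraries at ZT1 was left out, namely any of Col-0, replicate 1 or 2 of *lux-1*, replicate 2 or 3 of *acd6-1*, or replicate 2 of *acd6-1lux-1*, with adjusted p between 0.11 and 0.17. Among the libraries left out, the estimate moved furthest without *acd6-1lux-1* ZT1 replicate 2, at -0.86. The call was also lost with edgeR (adjusted p = 0.10), with limma voom (adjusted p = 0.31) and with only the libraries compared (adjusted p = 0.13), and it was kept with DESeq2 (adjusted p = 0.015). At ZT13 none of the 4 passed or had an unadjusted p under 0.05 by limma, where 0.586% of all genes passed, and no other tool called any.

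The effect of *acd6-1* was compared between the 2 times in the same way. *SARD4* was the only one of the 4 for which it differed, with an *acd6-1* effect that was smaller at ZT13 by 1.32 ± 0.33 on the log2 scale (adjusted p = 0.0074, limma), where 24.3% of all genes passed in that direction. The difference was -0.72 for *ALD1* (adjusted p = 0.30), -0.10 for *FMO1* and -0.04 for *UGT76B1* (adjusted p = 0.91 and 0.98). For *ALD1* it passed with 0.1 in place of 1 added to RPKM, where it was -1.77 (adjusted p = 0.084), and with DESeq2, at -2.14 (adjusted p = 0.079). The effect of *lux-1* did not differ detectably between the times for any of the 4, either in Col-0 plants, where 13.1% of all genes passed, or in *acd6-1* plants, where 6.84% did, and none had an unadjusted p under 0.05 by limma. Without *lux-1* ZT1 replicate 3 *SARD4* passed in Col-0 plants, and edgeR, limma voom and DESeq2 called none.

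*SARD4* and *UGT76B1* differed between the times of day in Col-0. *SARD4* rose at ZT13 over ZT1 by 1.46 ± 0.22 on the log2 scale (adjusted p = 2.2e-05, limma), with 38.3 to 57.8 RPKM at ZT13 and 14.5 to 18.2 RPKM at ZT1. *UGT76B1* rose by 1.76 ± 0.51 (adjusted p = 0.0067), with 6.16 to 10.7 RPKM at ZT13 and 0.549 to 3.58 RPKM at ZT1. These 2 of 4 genes passed as higher where 45.6% of all genes did, which is close to the same share. The median change over all genes was itself 0.24. Scaling the libraries by the median of ratios brought that median to 0.02 and left *SARD4* at 1.18 (adjusted p = 0.00047) and *UGT76B1* at 1.55 (adjusted p = 0.020).

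In the same Col-0 libraries *ALD1* and *FMO1* also lay above their ZT1 level at ZT13 without overlap, though few of their reads were counted. This separation was not set against that of all genes, of which 45.6% passed as higher in this comparison. *ALD1* had 32 reads over the 3 Col-0 libraries at ZT13 and 8 over the 3 at ZT1, a ratio of 4.15 with a 95% counting interval of 1.87 to 10.4. *FMO1* had 17 and 6 reads, a ratio of 2.94 with an interval of 1.11 to 9.10. Neither passed on log2(RPKM + 1), at 0.49 (adjusted p = 0.22) and 0.23 (adjusted p = 0.60), and *ALD1* passed with 0.1 added to RPKM, at 1.53 (adjusted p = 0.012), and with DESeq2, at 1.76 (adjusted p = 0.046).

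In *lux-1*, *SARD4* alone passed as higher at ZT13 than at ZT1, by 0.92 ± 0.22 (adjusted p = 0.0022, limma), where 37.7% of all genes did. Its level was 37.3 to 47.6 RPKM at ZT13 and 14.0 to 27.3 RPKM at ZT1. *UGT76B1* was at 3.81 to 4.65 RPKM at ZT13 and 0.303 to 4.94 RPKM at ZT1, which did not pass at 0.78 ± 0.51 on the log2 scale (adjusted p = 0.22). Without *lux-1* ZT1 replicate 1, the library with 4.94 RPKM, it passed at 1.28 (adjusted p = 0.052).

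In both genotypes with *acd6-1* *UGT76B1* kept a difference between the times and the other genes showed none that passed. In *acd6-1lux-1* it rose at ZT13 over ZT1 by 2.01 ± 0.57 (adjusted p = 0.0089, limma), and in *acd6-1* by 1.72 ± 0.57 (adjusted p = 0.022). It was the only one of the 4 to pass in either genotype, where 27.2% of all genes passed as higher in *acd6-1lux-1* and 31.2% in *acd6-1*. Both calls rest on a library at ZT13, since without *acd6-1lux-1* ZT13 replicate 1 the change was 1.57 (adjusted p = 0.12) and without *acd6-1* ZT13 replicate 2 it was 1.37 (adjusted p = 0.17). DESeq2 did not call it in *acd6-1*. In neither genotype did the *UGT76B1* libraries of the 2 times overlap, with 24.9 to 46.7 RPKM at ZT13 and 3.66 to 12.8 RPKM at ZT1 in *acd6-1lux-1*, and 47.4 to 78.6 RPKM at ZT13 and 11.1 to 24.0 RPKM at ZT1 in *acd6-1*.

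The 3 synthesis genes in *acd6-1* thus had no detected difference between the times, which does not show equal levels. The 95% intervals at ZT13 over ZT1 were -1.003 to 0.534 for *ALD1*, -0.378 to 0.665 for *SARD4* and -0.648 to 0.895 for *FMO1*. For *ALD1* and *FMO1* they include changes of nearly 2-fold. The log2 fold changes were -0.23 for *ALD1*, 0.14 for *SARD4* and 0.12 for *FMO1* at ZT13 over ZT1. In *acd6-1lux-1* the values were 0.65 for *ALD1* (adjusted p = 0.17), 0.39 for *SARD4* (adjusted p = 0.23) and 0.68 for *FMO1* (adjusted p = 0.15), and *ALD1* and *FMO1* passed there without *acd6-1lux-1* ZT1 replicate 1 or without replicate 3. All ZT13 libraries of *acd6-1lux-1* were above all its ZT1 libraries for each of these 3 genes, by as little as 1.06 times for *FMO1*, at 44.0 RPKM in the lowest ZT13 library and 41.6 RPKM in the highest ZT1 library. None of the 3 passed in the main test, where 27.2% of all genes passed as higher. How many of all genes separate likewise was not counted.

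**Figure D3:**
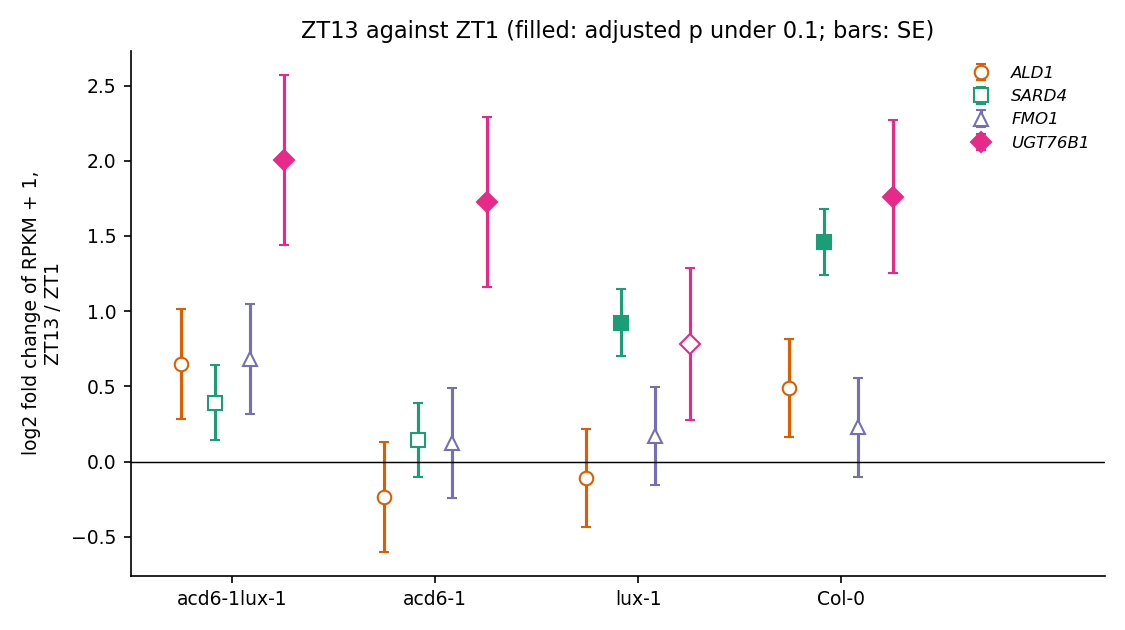
Log2 fold change of RPKM + 1 at ZT13 over ZT1 (vertical axis) for each gene in each genotype. Symbols are genes, bars are ± SE from limma, and filled symbols passed at an adjusted p under 0.1. *UGT76B1* lies at 1.72 to 2.01 in *acd6-1lux-1*, *acd6-1* and Col-0, and *SARD4* lies lower in both genotypes with *acd6-1*, at 0.14 and 0.39, than in *lux-1* at 0.92 and Col-0 at 1.46.

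Ordered by group mean, the 4 groups with *acd6-1* came first for every gene. For *ALD1* and *SARD4* each neighbour among these 4 groups overlapped the next. For *FMO1* *acd6-1* at ZT13 overlapped *acd6-1* at ZT1, and then *acd6-1* at ZT1, *acd6-1lux-1* at ZT13 and *acd6-1lux-1* at ZT1 followed without overlap. For *UGT76B1* *acd6-1* at ZT13, *acd6-1lux-1* at ZT13 and *acd6-1* at ZT1 followed without overlap, and *acd6-1lux-1* at ZT1, at a mean of 8.64 RPKM, overlapped Col-0 at ZT13, at 7.85 RPKM.

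The 4 genes departed from their group means together in several libraries. In *acd6-1lux-1* at ZT1 replicate 1 had the highest and replicate 2 the lowest level of each of the 4, with replicate 2 below the group mean by 0.99 on the log2 scale for *ALD1*, 0.47 for *SARD4*, 1.14 for *FMO1* and 0.91 for *UGT76B1*. In *lux-1* at ZT1 replicate 3 was the lowest for each of the 4, in *acd6-1* at ZT1 replicate 3 was the highest for each, and in *acd6-1* at ZT13 replicate 2 was. In 13 of the 22 libraries all 4 genes lay on the same side of their group means. With 2 or 3 libraries in a group this is a description and was not tested.

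The SA marker *PR1* was low in the same 2 libraries that were low in the NHP genes. At ZT1 the 3 *acd6-1lux-1* libraries held 3602, 1156 and 3155 RPKM of *PR1* and the 3 *lux-1* libraries 126, 65.5 and 19.4 RPKM. The summed level of 12 genes that respond in systemic resistance was 8943, 4460 and 9055 RPKM in the same *acd6-1lux-1* libraries. Replicate 2 of *acd6-1lux-1* had 80.68% of its reads mapped, within the range of the other libraries.

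**Figure D4:**
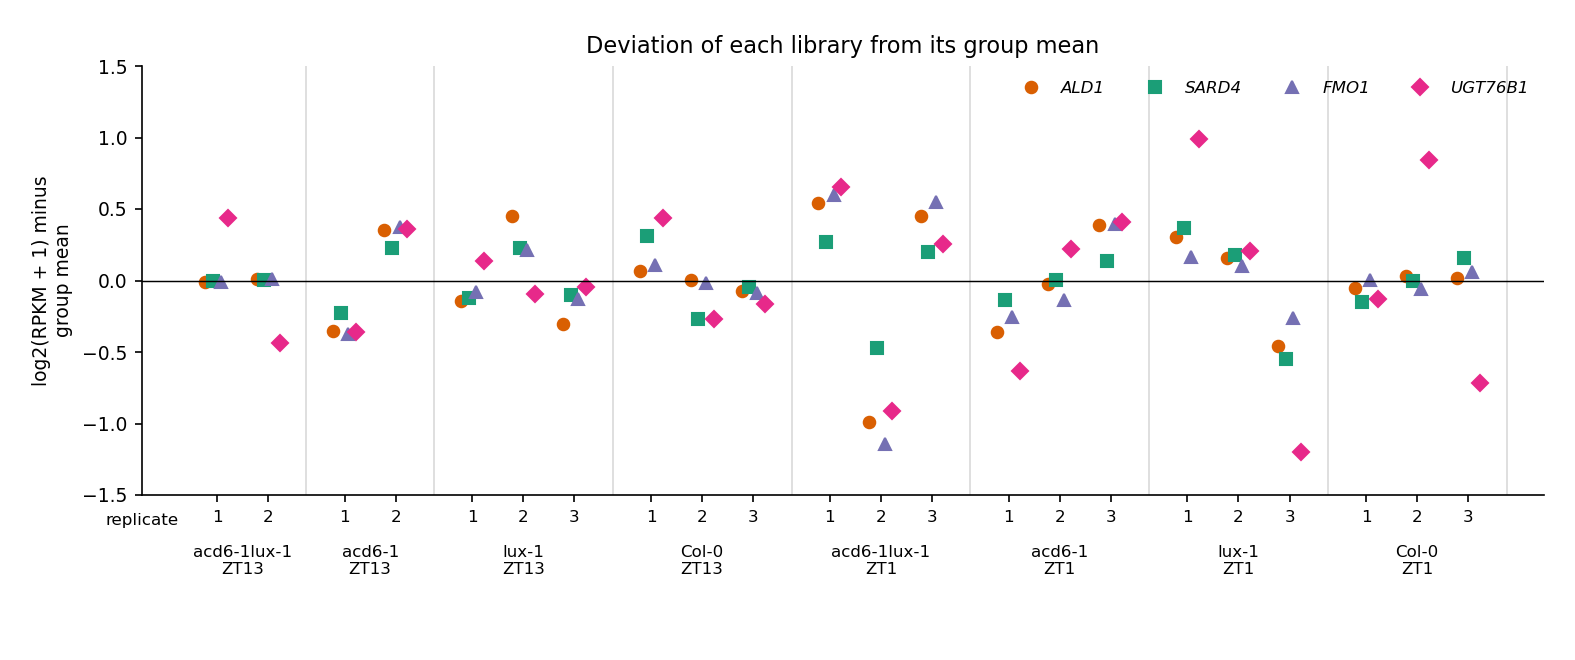
Deviation of log2(RPKM + 1) from the group mean (vertical axis) for each gene in each library, with replicates side by side within each group. Symbols are genes and the line at 0 is the group mean. In *acd6-1lux-1* ZT1 replicate 2 all 4 genes lie below the line, at -0.47 to -1.14.

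The genes around the pathway were followed as lists. Lysine, the starting amino acid, is made through aspartate kinases, dihydrodipicolinate synthases and reductases, *AGD2* and decarboxylases, and is degraded by *LKR/SDH*, the bifunctional enzyme that shares lysine with *ALD1*. Of these 15 genes 9 fell, 1 rose and 5 did not pass in *acd6-1* against Col-0 at ZT13, with a median log2 fold change of -0.38 against -0.06 over all genes tested, of which 26.5% passed as lower. At ZT1 14 fell and 1 rose, with a median of -0.79 against 0.03 over all genes, of which 31% passed as lower.

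The 1 that rose at both times was *LKR/SDH*, by 1.19 (adjusted p = 0.049, limma) at ZT13 and by 3.24 (adjusted p = 2.8e-06) at ZT1. It was at 126 to 156 RPKM in *acd6-1* and 10.1 to 18.3 RPKM in Col-0 at ZT1, and at 63.8 and 83.0 RPKM in *acd6-1* and 22.6 to 44.5 RPKM in Col-0 at ZT13. Among those that fell was *AK-HSDH1*, which joins aspartate kinase with homoserine dehydrogenase, by 1.88 at ZT1. *DHDPR3*, listed among the dihydrodipicolinate reductases, fell by 1.20 at ZT13.

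In *acd6-1lux-1* against *acd6-1* at ZT1 the lysine genes went the other way, with 8 higher, 1 lower and 6 that did not pass, where 22.8% of all genes passed as higher, and *LKR/SDH* fell by 1.26 (adjusted p = 0.035, limma). *LKR/SDH* was at 61.1, 41.1 and 78.9 RPKM in *acd6-1lux-1* against 156, 126 and 144 RPKM in *acd6-1*, without overlap. The median of the list was 0.30 against 0.09 over all genes tested. Without *acd6-1lux-1* ZT1 replicate 2 the counts were 2 higher and 0 lower, and without *acd6-1* ZT1 replicate 3 they were 5 and 1. At ZT13 none of the 15 passed by limma, and 4 had an unadjusted p under 0.05.

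Most of the listed regulators known upstream of *ALD1*, *SARD4* or *FMO1*, not sorted into activators and repressors, rose together with them. Of 21 such genes 18 rose, 1 fell and 2 did not pass in *acd6-1* against Col-0 at ZT13, with a median of 1.25, and 19 rose and 2 did not pass at ZT1, with a median of 2.15. Of all genes tested 22.3% rose at ZT13 and 37.2% at ZT1. Those with the smallest adjusted p were *PAD4*, a lipase-like immune regulator, at 2.54 at ZT13 and 4.09 at ZT1, the transcription factor *SARD1*, at 3.32 and 4.74, and *EDS1*, the partner of *PAD4*, at 1.97 and 2.89. In *acd6-1lux-1* against *acd6-1* at ZT1 13 fell and 8 did not pass, with a median of -0.46, where 10.9% of all genes passed as lower. Those that fell included *MPK3*, a mitogen-activated protein kinase, at -1.02 (adjusted p = 0.00011, limma), the transcription factor *WRKY33* at -1.53 (adjusted p = 0.00016) and *NPR3*, an SA receptor, at -1.11 (adjusted p = 0.00093).

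The count of regulators that fell in that contrast was 8 without *acd6-1lux-1* ZT1 replicate 2 and 10 without *acd6-1* ZT1 replicate 3. Comparing *lux-1* with Col-0, 2 of the 21 rose and 7 fell at ZT1, where 17.8% of all genes passed in either direction. At ZT13 none of the 21 passed by limma in *acd6-1lux-1* against *acd6-1* or in *lux-1* against Col-0, with 1 and 4 at an unadjusted p under 0.05. By the time of day, 16 of the 21 rose and 1 fell at ZT13 over ZT1 in Col-0 (median 0.87), where 45.6% of all genes rose (median 0.24). In *acd6-1* 5 rose and 2 fell (median 0.30), where 31.2% of all genes rose (median 0.12).

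The SA genes did not move in 1 direction. *ICS2*, *UGT74F1* and *UGT76D1* were low throughout, with at most 2.37, 1.55 and 2.81 RPKM in any library. *PBS3*, which conjugates isochorismate to glutamate, rose in *acd6-1* over Col-0 by 4.77 at ZT13 and 5.65 at ZT1, *ICS1*, the isochorismate synthase of defense, by 3.61 and 4.35, and *EDS5*, the chloroplast exporter, by 2.73 and 3.44. Of the 8 genes in the list 3 rose, 1 fell and 4 did not pass at ZT13, with a median of 0.70, and 5 rose and 3 fell at ZT1, with a median of 1.73. Beside them 22.3% of all genes rose and 26.5% fell at ZT13, and 37.2% rose and 31% fell at ZT1. *UGT74F2*, an SA glucosyltransferase, rose by 2.28 at ZT1 (adjusted p = 0.00010, limma), was at 0.95 at ZT13 (adjusted p = 0.11) and was named here after its values were seen. In *acd6-1lux-1* against *acd6-1* at ZT1 *ICS1* fell by 1.01 (adjusted p = 0.0031) and *PBS3* by 1.12 (adjusted p = 0.0086), and at ZT13 none of the 8 passed or had an unadjusted p under 0.05. Of the list 2 rose and 3 fell at ZT1, against 1 and 2 without *acd6-1lux-1* ZT1 replicate 2. With all libraries 22.8% of all genes passed as higher and 10.9% as lower in that contrast.

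Genes that respond to systemic resistance were uniform. All 12 rose in *acd6-1* against Col-0 at both times, with medians of 2.95 at ZT13 and 4.04 at ZT1, where 22.3% and 37.2% of all genes rose. All 12 rose in *acd6-1lux-1* against *lux-1* as well, where 19.9% of all genes did at ZT13 and 32.2% at ZT1. *PR2*, a glucanase, stood at 3.13 and 5.60, and *PNP-A*, a secreted peptide, at 3.58 and 5.44. In *acd6-1lux-1* against *acd6-1* none of the 12 passed at ZT13 by limma, with 1 at an unadjusted p under 0.05, and 1 fell at ZT1, a count that was 0 when *acd6-1lux-1* ZT1 replicate 2 or *acd6-1* ZT1 replicate 3 was left out and 2 when *acd6-1lux-1* ZT1 replicate 3 was. Of all genes 1.5% passed in that contrast at ZT13 and 10.9% passed as lower at ZT1.

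Genes of lipid signals and their carriers in systemic resistance showed no shared direction. Of 7, 1 rose and 4 fell in *acd6-1* against Col-0 at ZT13, and 3 rose and 3 fell at ZT1. Among all genes tested 22.3% rose and 26.5% fell at ZT13, and 37.2% rose and 31% fell at ZT1. The lipid transfer protein gene *AZI1* fell by 1.84 at ZT13, and *GLI1*, a glycerol kinase, rose by 0.61 at ZT13 and by 1.19 at ZT1.

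Of 12 other glucosyltransferases of the UGT76 family 11 were tested, and in *acd6-1* against Col-0 2 rose and 5 fell at ZT13 and 4 rose and 5 fell at ZT1, beside the 22.3% and 37.2% of all genes that rose and the 26.5% and 31% that fell. The largest rise among them was 1.08 at ZT13, for *UGT76E1*, and 1.17 at ZT1, for *UGT76D1*, against 2.85 and 2.88 for *UGT76B1*. *UGT76C2*, a cytokinin glucosyltransferase, fell by 1.04 and 1.26.

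Of 14 other flavin monooxygenases 11 were tested, with 0 higher and 3 lower at ZT13 by limma and 2 higher and 6 lower at ZT1. *YUC6*, of the auxin synthesis branch, fell by 0.69 at ZT13, and the glucosinolate oxygenase genes *FMO GS-OX3* and *FMO GS-OX1* fell by 2.53 and 2.05 at ZT1. *FMO1*, at 5.61 and 5.71, was above every tested relative in the list, the highest being *FMO GS-OX4* at 0.80 at ZT1.

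**Figure D5:**
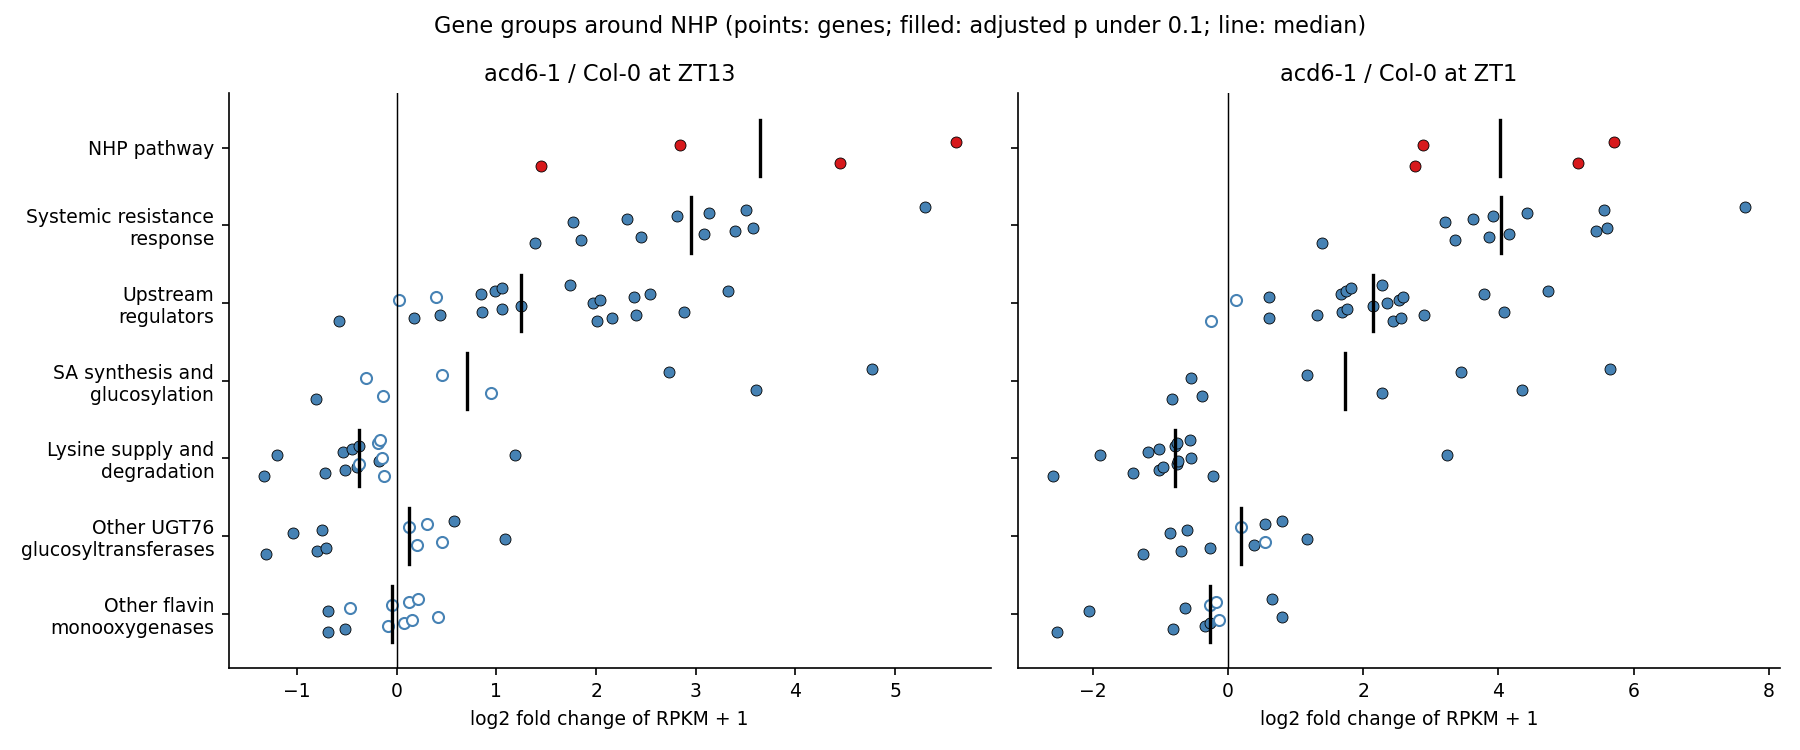
Log2 fold change of RPKM + 1 in *acd6-1* over Col-0 (horizontal axis) at ZT13 (left) and ZT1 (right) for the NHP pathway genes and 6 lists of related genes. Each point is a gene, filled where the adjusted p was under 0.1, and the vertical line is the median of the list. The systemic resistance genes and the upstream regulators lie mostly right of 0, and the lysine genes lie left of it except *LKR/SDH*.

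The genes with the most similar pattern were found from the 8 group means of log2(RPKM + 1), each gene centred on its own mean, by the root mean square difference. Changes were not scaled, so this measure reflects their size as well as their shape. The closest to *ALD1* was AT5G52720, at 0.13, with 22.7 ± 10.6 RPKM in *acd6-1lux-1*, 34.5 ± 3.65 in *acd6-1*, 0.629 ± 0.370 in *lux-1* and 0.225 ± 0.0080 in Col-0 at ZT1 (SD, n = 3 each). *PBS3* at 0.32, the receptor-like kinase gene *CRK37* at 0.33 and the transporter gene *ABCG40* at 0.34 followed. *FMO1* was number 14 in nearness to *ALD1*, at 0.42.

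*PBS3* was also the closest to *FMO1*, at 0.37, before *ALD1* in second place and AT3G28510, AT4G10500 and *WRKY51* at 0.43 to 0.45. *SARD4* had much closer neighbours, the receptor-like kinase gene *CRK19* at 0.088, *emb2170* (AT1G21390) at 0.089, AT1G30755 at 0.090 and AT5G43910 at 0.094. The nearest to *UGT76B1* were *CYP71A13*, a cytochrome P450 of camalexin synthesis, at 0.30, *CYP76C5* at 0.30, AT4G14450 at 0.31 and *FRB1* at 0.35. *CYP71A13* held 90.4 ± 9.10 RPKM at ZT13 and 44.1 ± 10.2 RPKM at ZT1 in *acd6-1* (SD, n = 2 and 3). It was picked by its nearness over both times, so a like difference between the times follows from the choice. *ALD1* and *SARD4*, consecutive in the pathway, differed by 1.33 in this measure, though both were higher in every library with *acd6-1* than in every library without it.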

How the data were processed

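Whole plants of 4 genotypes were collected at ZT13 and ZT1, giving 22 libraries in 8 groups of 2 or 3. The authors made TruSeq libraries and sequenced single reads on a HiSeq. The labels' extraction text is about genomic DNA, whereas the methods describe RNA extracted with TRIzol. The submitters' processing notes name CASAVA and the build TAIR10, with the aligner and counter not given in the sources used here. The authors deposited RPKM values of 25218 transcript models, 1 per gene, and counts of total reads per library (14458079 to 20134373), with mapped reads of 10306552 to 16224975. Of the model lengths found from the RPKM values as described below, 97.43% are multiples of 3, as coding lengths are. Whether counting used strand is likewise not given there. There was 1 column that matched no sample and was left out.

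The length of each gene was searched for, as the smallest at which RPKM times length and mapped reads was whole, within 0.001, in every library. Such a length was found for 100.0% of values, so the whole reads follow from the search and are no separate check of it. These reads served for read counts, Poisson and binomial 95% intervals (counting error only) and added count tests. edgeR on them called 10601 genes in *acd6-1* against Col-0 at ZT13. Ratios of pooled reads are per mapped read. No pair of libraries held identical values.

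The main test was limma 3.58.1 (R 4.3.3) with a trend on log2(RPKM + 1), with 8 group means from all 22 libraries, over 21666 genes with a group mean RPKM above 0.3, and Benjamini-Hochberg adjustment at 0.1. The cutoff of 0.3 is the one the study gives for expression profiling, used here as a filter on group means, and the threshold of 0.1 is the one it used with DESeq. The script was tested on simulated data. Alternatives were other pseudocounts, filters, scalings and thresholds, a fit on the compared libraries only, a replicate block, leaving out each library, and edgeR 4.0.16, limma voom and DESeq2 1.42.0 on recovered reads, the last 3 and the list counts without single libraries chosen after seeing the data. Where a library was left out of a pair, the other was assumed to vary like the other groups.

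Members and gene lists were chosen with earlier results of these data known. Named genes were the 4 members, the 4 nearest genes of each by pattern, up to 3 genes per list by smallest adjusted p, *AGD2*, *LKR/SDH*, *LUX*, *ACD6* and *PR1*. *ACD6* was at 230 to 600 RPKM in libraries with *acd6-1* and 112 to 418 RPKM in those without. Of 4 root markers tested, at most 1 rose and 1 fell in any comparison. Gene symbols came from the RefSeq table for TAIR10.1, which matched 24867 loci, and no coordinates were taken from it.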

Additional observations from a re-analysis of the deposited data

Results flagged for a closer look

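The effect of *lux-1* on *ALD1*, the first enzyme of NHP synthesis, differed between the backgrounds at ZT1 by -1.36 on the log2 scale (SE 0.46, adjusted p = 0.074, limma). It was -0.79 in *acd6-1lux-1* against *acd6-1* and 0.57 in *lux-1* against Col-0, with 8 *ALD1* reads in all behind the Col-0 group. Over the libraries left out in turn 0 to 3 of the 4 genes passed this test, and without *acd6-1lux-1* ZT1 replicate 2 the value was -0.86 (adjusted p = 0.17). Its adjusted p over all alternatives lay between 0.015 and 0.31 and its value between -0.86 and -3.04, and it did not pass with edgeR, with limma voom, with only the libraries compared or with the replicate block by title numbers.

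The effect of *acd6-1* on *SARD4* differed between the times by -1.32 on the log2 scale (SE 0.33, adjusted p = 0.0074, limma), with an effect of 1.45 at ZT13 and 2.77 at ZT1. In Col-0 *SARD4* was at 38.3 to 57.8 RPKM at ZT13 and 14.5 to 18.2 RPKM at ZT1, and in *acd6-1* at 109.7 and 150.3 RPKM at ZT13 and 105 to 128 RPKM at ZT1. It passed under each of the 36 alternatives, with adjusted p of 0.0020 to 0.059, and was -1.19 after median-of-ratios scaling and -1.06 after quantile normalization.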

How the results depend on the processing

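Of 68 estimates (4 genes in 17 comparisons) 50 kept their side of the threshold under all 36 alternatives, 19 of the 25 that passed never lost the call, and none that passed changed sign. Estimates that did not pass changed sign 53 times, in 17 of the 68. The number of genes that passed moved by more than 1.5 times, or between 0 and 1, in 8 comparisons, and without single libraries or with other settings it moved by less in 2 others, 3 to 4 in *acd6-1lux-1* against *lux-1* at ZT1 and 2 to 3 for ZT13 against ZT1 in Col-0. Comparing *lux-1* with Col-0 at ZT1 it was 1 in place of 0 with 0.1 added to RPKM and 1 with DESeq2, and 0 to 1 without single libraries. For *acd6-1lux-1* against *acd6-1* at ZT1 it was 0 in place of 2 with 0.1 added, 1 with 0.5 added, 1 without the filter, 0 with only the libraries compared, 1 at an adjusted p under 0.05, 0 with DESeq2, 3 with edgeR and voom, and 0 to 3 without single libraries. For the *lux-1* effect by background at ZT1 it was 0 in place of 1 with only the libraries compared, 0 at 0.05, 0 with edgeR, 0 with voom, and 0 to 3 without single libraries. For the *acd6-1* effect by time it was 2 in place of 1 with 0.1 added, 2 with only the libraries compared and 2 with DESeq2. Without single libraries it was 0 to 1 for the *lux-1* effect in Col-0 by time, 1 to 2 for ZT13 against ZT1 in *lux-1*, 0 to 3 in *acd6-1lux-1*, and 0 to 1 in *acd6-1*, where DESeq2 also gave 0. The causes were not tested.

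No pairing by replicate number was seen on average. Libraries of the same number in different groups had deviations with a mean correlation of -0.01 by title and 0.01 by description (71 pairs each, 19 and 20 above 0.1). Single pairs ranged from -0.54 to 0.30 by title and from -0.54 to 0.34 by description. The labels do not say whether samples were paired, and these values cannot settle it. With the replicate block by title numbers 1 of the 4 genes passed in *acd6-1lux-1* against *acd6-1* at ZT1 and 0 for the *lux-1* effect by background at ZT1. With the block by description numbers 1 passed in *acd6-1lux-1* against *acd6-1* at ZT1. Depth limits *ALD1* and *FMO1* without *acd6-1*, where no library exceeded 21 and 12 reads.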
